A study of Mus musculus with 36 samples.

Results

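Endothelial junction and identity genes are described here across heart cells after a single dose of radiation. The set has 10 members (Pecam1, Cdh5, Cldn5, Esam, Tie1, Tek, Erg, Egfl7, Robo4 and Vwf) of the 24061 gene names in the files, and it was taken as a list of names, drawn up when earlier results of these data were known. Where a name had several RefSeq transcripts, the transcript with the most reads over the 36 libraries stood for the gene. All 10 members were found, and all 10 passed the filter on low counts in each cell type.

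Endothelial cells line the inside of blood vessels and of the heart, and they hold together through junctions. Adherens junctions are built on VE-cadherin (Cdh5), tight junctions on claudin-5 (Cldn5), and adhesion molecules such as PECAM-1 (Pecam1) and ESAM (Esam) sit beside them. The angiopoietin receptor gene Tek and its partner Tie1 signal for vessel stability, the transcription factor ERG maintains endothelial gene expression, and von Willebrand factor (Vwf) is stored in endothelial granules for haemostasis.

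The libraries came from wild-type C57Bl6J mouse hearts, which received either sham treatment or RT 12 Gy in 1 fraction from a small-animal irradiator. RNA of endothelial cells, of myocytes and of fibroblasts was sequenced 6 hours, 7 days and 28 days later, with 2 libraries per cell type, treatment and time. Age is not given in the labels, nor is how the cells were separated or whether the libraries of a group came from separate animals, so p-values measure the spread between these libraries, which may be technical. Levels are counts scaled to the reads of each library (CPM), and the depth of endothelial libraries was 25.91 to 45.49 M reads, of myocyte libraries 10.18 to 19.42 M and of fibroblast libraries 25.63 to 31.94 M.

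The endothelial label was checked against markers of other cells. Fibroblast markers (10 genes) summed to between 2429 and 6481 CPM in endothelial libraries, against 67039.5 to 83734.3 CPM in fibroblast libraries. Cardiomyocyte markers (12 genes) summed to between 375.5 and 882.2 CPM in endothelial libraries, against 92553.9 to 115263.5 CPM in myocyte libraries. Mural cell markers (10 genes) were highest in endothelial libraries, at 1980 to 3113 CPM. They summed to 1376 to 1867 CPM in fibroblast and 666.8 to 1643 CPM in myocyte libraries. Cdkn1a, a p53 target that marks the response to radiation damage, was 3.68 times its sham level in the irradiated endothelial libraries at 6 hours (log2 fold change 1.88 ± 0.17, edgeR adjusted p = 1.39e-05).

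The promoters of 4 members are shown because these members carry the differences described further on: Cldn5 and Robo4 were lower 6 hours after irradiation, Tek was lower at 28 days, and Tie1 is the receptor partner of Tek. RefSeq promoter windows (GRCm38.p6, 250 bases before to 50 after the start on which each window was set) were held for 6 of the 10 members. For Cldn5 and Tie1 that start is the start of the transcript counted here. For Tek and Robo4 it lies downstream of it, so these windows hold more of the counted transcript and fewer of the bases before it. Capitals mark GGAA or its reverse complement TTCC, the core bound by the ETS family of transcription factors, to which ERG belongs. Both strands were searched, overlapping matches were counted, and each sequence is written 5′ to 3′ on the gene's strand. The windows are chr16:18776597-18776896 (plus strand) for Cldn5, chr9:37401722-37402021 (plus strand) for Robo4, chr4:94739039-94739338 (plus strand) for Tek and chr4:118489800-118490099 (minus strand) for Tie1.
Cldn5: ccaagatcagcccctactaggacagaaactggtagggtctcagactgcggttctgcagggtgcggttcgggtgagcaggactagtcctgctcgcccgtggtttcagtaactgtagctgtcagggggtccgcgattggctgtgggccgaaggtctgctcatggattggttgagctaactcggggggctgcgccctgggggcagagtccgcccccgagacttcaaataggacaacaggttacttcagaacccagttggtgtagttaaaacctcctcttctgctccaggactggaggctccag
Robo4: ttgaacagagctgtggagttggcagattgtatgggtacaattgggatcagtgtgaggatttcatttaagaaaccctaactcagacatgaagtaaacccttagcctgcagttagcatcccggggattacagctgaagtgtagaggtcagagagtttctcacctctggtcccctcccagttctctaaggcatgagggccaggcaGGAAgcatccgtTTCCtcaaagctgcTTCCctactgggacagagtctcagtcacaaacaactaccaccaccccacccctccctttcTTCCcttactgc
Tek: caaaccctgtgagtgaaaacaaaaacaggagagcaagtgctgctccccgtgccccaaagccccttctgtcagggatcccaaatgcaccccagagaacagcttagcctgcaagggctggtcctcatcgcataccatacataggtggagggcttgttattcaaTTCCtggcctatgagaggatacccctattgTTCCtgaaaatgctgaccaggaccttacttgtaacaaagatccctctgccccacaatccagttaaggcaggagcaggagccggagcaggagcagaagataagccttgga
Tie1: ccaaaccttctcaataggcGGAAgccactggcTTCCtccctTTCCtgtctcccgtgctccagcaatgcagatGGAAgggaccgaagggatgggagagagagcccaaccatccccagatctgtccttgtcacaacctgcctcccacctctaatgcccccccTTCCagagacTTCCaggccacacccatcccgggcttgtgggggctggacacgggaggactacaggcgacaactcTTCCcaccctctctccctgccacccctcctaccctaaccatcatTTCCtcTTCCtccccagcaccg
The Tie1 window held 9 matches, the Robo4 window 4, the Tek window 2 and the Cldn5 window 0. Of 32851 promoter windows of the same length, 96% held at least 1 match, with a median of 3 and quartiles of 2 and 5. The longer form CCGGAA, searched on both strands, was in none of the 4 windows and in 14.9% of all windows. These matches describe letters in the windows and say nothing of binding.

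In sham endothelial libraries all 10 genes were well expressed. On the RPKM scale, which divides reads by transcript length and so lets genes be compared, Pecam1 was highest (580 ± 47.3 RPKM, SD, n = 6), followed by Cdh5 (397 ± 31.1). Egfl7, which codes for a secreted protein of the vessel wall, had a mean of 290 RPKM, Esam 267, Vwf 254 and Tie1 228, and in this stretch each range overlapped the next. Cldn5 followed at 154 ± 27.7, Tek at 113 ± 9.08, Robo4, a roundabout receptor of endothelium, at 68.2 ± 7.04, and Erg at 55.4 ± 2.84 RPKM. From Tie1 to Erg, and from Pecam1 to Egfl7, the sham ranges of neighbours in this order did not overlap.

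At 6 hours after irradiation, 2 junction genes and the receptor gene Robo4 were lower in endothelial libraries. Cldn5, Esam and Robo4 fell, to 62.1%, 75.2% and 76.2% of their sham levels in the fit. None of the 10 members rose, and the other 7 did not pass the test. Called lower were 3 of 10 members, where 5.23% of the 14919 genes tested were called lower and 11.3% were called in either direction (edgeR quasi-likelihood test, adjusted p under 0.05). The calls depended on the fit: limma on log2(RPKM + 1) and a fit of the 4 libraries of 6 hours alone each called only Cldn5, and one fit of all 36 libraries called 0.

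Cldn5 (chromosome 16, 18776847 to 18778262), the tight junction gene, was at 446 and 333 CPM in the sham libraries and at 253 and 247 CPM in the irradiated libraries at 6 hours. Both irradiated values lay below both sham values, and the sham libraries were farther from each other than the irradiated ones. The log2 fold change was -0.69 ± 0.13 (SE; edgeR adjusted p = 0.00399), and it stayed between -0.92 and -0.42 when any 1 endothelial library was left out, with adjusted p from 0.000136 to 0.0304. In one fit of all 36 libraries the value was -0.72 and the call was lost (adjusted p = 0.259).

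Esam (chromosome 9, 37528089 to 37538319) had 982 and 842 CPM in sham and 740 and 674 CPM in irradiated libraries. Its groups did not overlap either, and its log2 fold change was -0.41 ± 0.11 (edgeR adjusted p = 0.0317). The call was lost when the fit lacked sham library 1 of 6 hours (adjusted p = 0.253), irradiated library 2 of 6 hours (0.144) or either sham library of 28 days (0.0504 and 0.0505).

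Cdh5, the adherens junction gene, had 2849 and 2337 CPM in sham and 2024 and 2113 CPM in irradiated libraries at 6 hours. These groups did not overlap, but the difference of -0.37 ± 0.12 missed the threshold (edgeR adjusted p = 0.0740), and it passed without the second sham library (adjusted p = 0.0171). Pecam1, which leukocytes and platelets also carry, had 3235 and 3415 CPM in sham and 3163 and 3620 CPM in irradiated libraries, and its groups overlapped (log2 fold change -0.01 ± 0.11). Among the junction genes the fitted level at 6 hours ranged from 62.1% of sham for Cldn5 to 99.2% for Pecam1, and a difference between genes was not tested.

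Robo4 (chromosome 9, 37401902 to 37414023) was at 453 and 402 CPM in sham and 347 and 325 CPM in irradiated libraries at 6 hours. All irradiated values were below all sham values, with a log2 fold change of -0.39 ± 0.10 (edgeR adjusted p = 0.0250). The call was lost when the fit lacked sham library 1 (adjusted p = 0.211) or irradiated library 2 (0.108). Tie1 had 1542 and 1520 CPM in sham and 1252 and 1365 CPM in irradiated libraries, also with no overlap, and missed the threshold (log2 fold change -0.27 ± 0.10, edgeR adjusted p = 0.0943). Tek, by contrast, overlapped, with 738 and 771 CPM against 672 and 769 CPM (-0.11 ± 0.11).

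The remaining 3 members did not pass at 6 hours. Erg had 186 and 182 CPM in sham and 205 and 206 CPM in irradiated libraries, the only member whose irradiated values were both above its sham values (log2 fold change 0.12 ± 0.08, edgeR adjusted p = 0.398). Egfl7 had 722 and 617 CPM against 614 and 488 CPM, with -0.33 ± 0.17. Vwf had 3035 and 3828 CPM against 3415 and 4736 CPM, and its groups overlapped. Over the 10 members the median log2 fold change was -0.30, beside 0.01 over all genes tested. Both irradiated libraries lay below both sham libraries for 6 members (19.8% of all genes) and above for 1 (31.2% of all genes).

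Fibroblast markers moved in the same libraries. Their summed level was 2429 and 3039 CPM in sham and 3564 and 3293 CPM in irradiated endothelial libraries at 6 hours, with 3 of 10 called higher, none lower and none at 0 reads. The largest of these rises was that of Mmp2 (log2 fold change 1.67 ± 0.14), which also rose in the fibroblast libraries of 6 hours (0.77 ± 0.06). Other lists had calls as well. Of lymphatic endothelial markers 2 of 6 tested were higher, of mural cell markers 1 of 10 was higher and 1 lower, and of macrophage markers 1 of 9 tested was higher. The part of these lists in the member differences was not tested. In bulk RNA, fewer cells of a type and less RNA per cell cannot be told apart.

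**Figure D1:**
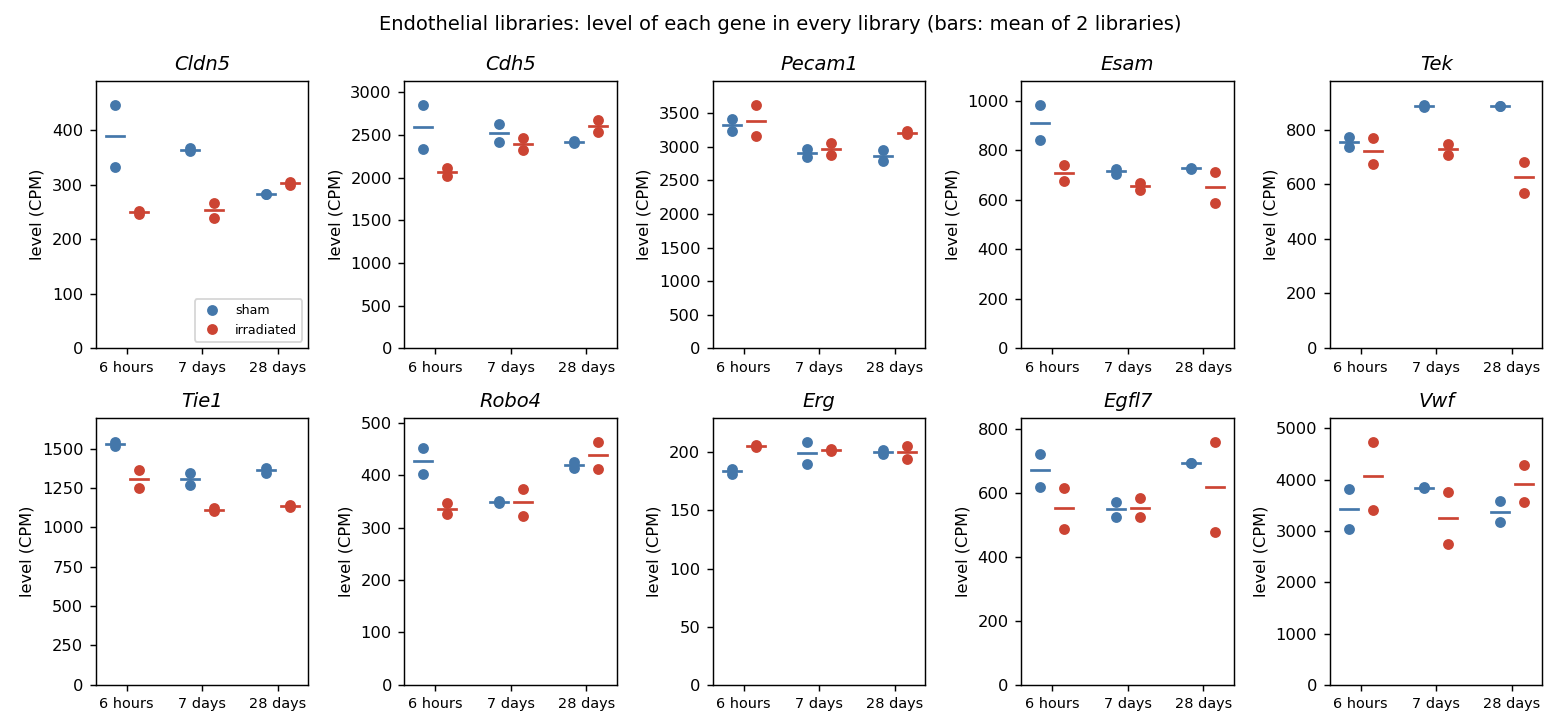
Level of the 10 genes in each of the 12 endothelial libraries (y axis, CPM, from 0) at 6 hours, 7 days and 28 days (x axis); blue points are sham, red points irradiated, and bars are the mean of 2 libraries. Cldn5 was at 253 and 247 CPM in irradiated libraries against 446 and 333 CPM in sham at 6 hours, and Tek was at 570 and 681 CPM against 885 and 888 CPM at 28 days.

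At 7 days none of the 10 members was called in endothelial libraries, where 1.82% of all genes were (edgeR). An unadjusted p under 0.05 was reached by 3 members, Cldn5, Tek and Tie1, and by 1460 of all 14919 genes tested. With DESeq2 1 member was called. Cldn5 had 368 and 362 CPM in sham and 240 and 266 CPM in irradiated libraries, with a clear gap between the groups. Its log2 fold change was -0.54 ± 0.13 (edgeR adjusted p = 0.0541), and it passed the threshold without either sham library of 6 hours (adjusted p = 0.00391 and 0.00335) and with DESeq2 (0.00270).

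Tek and Tie1 had lower values in the irradiated libraries at 7 days, without passing. Tek was at 883 and 889 CPM in sham and at 747 and 707 CPM in irradiated libraries (log2 fold change -0.29 ± 0.11, edgeR adjusted p = 0.345). Tie1 was at 1347 and 1269 CPM in sham and at 1120 and 1104 CPM in irradiated libraries (-0.24 ± 0.10, adjusted p = 0.372). For both genes the groups did not overlap.

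Of the other members at 7 days, Esam and Vwf also had lower irradiated values without overlap, and none passed. Cdh5 had 2626 and 2414 CPM against 2328 and 2471 CPM, Pecam1 2853 and 2973 against 3061 and 2886 CPM, and Robo4 351 and 348 against 323 and 373 CPM, all overlapping. Esam was at 705 and 724 CPM in sham and 639 and 668 CPM in irradiated libraries, which did not overlap (log2 fold change -0.14 ± 0.11). Erg and Egfl7 had log2 fold changes of 0.01 ± 0.08 and 0.00 ± 0.17. Vwf was at 3834 and 3858 CPM in sham and 3756 and 2738 CPM in irradiated libraries, with 1 irradiated library well below the rest (log2 fold change -0.25 ± 0.19). In all, 5 members lay lower without overlap (20.6% of all genes) and none higher (23.3%). Fibroblast markers summed lower in the same libraries, at 5810 and 5547 CPM in sham and 4573 and 4219 CPM in irradiated libraries. Mural cell markers summed higher, at 2631 and 2829 CPM against 2944 and 3113 CPM. Sums of mesothelial, erythroid and macrophage markers were also higher without overlap. No gene of these lists was called, and their part in the member differences was not tested.

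At 28 days the member that fell was Tek, the angiopoietin receptor gene (chromosome 4, 94739086 to 94874976), to 70.6% of its sham level. Tek was at 885 and 888 CPM in the sham libraries and at 570 and 681 CPM in the irradiated ones. The sham libraries were nearly alike and both irradiated libraries lay well below them. The log2 fold change was -0.50 ± 0.11 (edgeR adjusted p = 0.0135), so 1 of 10 members was called lower, where 4.25% of all genes were called lower and 9.97% in either direction.

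The Tek call at 28 days depended on single libraries and on the fit. With irradiated library 1 left out the log2 fold change was -0.35 (adjusted p = 0.0570). With sham library 1 or 2 left out it was -0.50 in both fits (adjusted p = 0.0855 and 0.0966). The call was also lost in one fit of all 36 libraries (-0.50, adjusted p = 0.0774) and in a fit of the 4 libraries of 28 days alone (-0.50, 0.0587).

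Tie1, its partner receptor, was at 1377 and 1347 CPM in sham and 1127 and 1142 CPM in irradiated libraries at 28 days. The groups did not overlap, and the log2 fold change was -0.26 ± 0.10 (edgeR adjusted p = 0.101). Tie1 thus had nearly the same fitted difference at each time, -0.27, -0.24 and -0.26, and passed at none; a test of its effect between times gave adjusted p = 0.990.

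Cldn5 did not have lower irradiated values at 28 days, with 284 and 284 CPM in sham and 299.6 and 306 CPM in irradiated libraries (log2 fold change 0.09 ± 0.13). Cdh5 had 2402 and 2427 CPM against 2539 and 2680 CPM, and Pecam1 had 2948 and 2790 CPM against 3188 and 3238 CPM. For these 3 genes both irradiated values were above both sham values, but none passed (edgeR adjusted p = 0.693, 0.610 and 0.371). Across all genes, 29.3% were higher without overlap and 28% lower, beside 3 members each.

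Esam was at 727 and 726 CPM in sham and 714 and 586 CPM in irradiated libraries (-0.16 ± 0.11), and Egfl7 at 694 and 694 CPM against 758 and 476 CPM. The second irradiated library was the lower for both genes. Egfl7 passed without the first irradiated library (log2 fold change -0.52, adjusted p = 0.0392), where the lone second library stood for the group. Robo4 (0.06 ± 0.10), Erg (0.00 ± 0.08) and Vwf (0.21 ± 0.19) overlapped between groups. The median over the 10 members was 0.03, beside 0.00 over all genes.

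Markers of other cells were lower for some cell types and higher for 1 in the irradiated endothelial libraries at 28 days. Erythroid markers summed to 2148 and 1616 CPM in sham and 1041 and 431.3 CPM in irradiated libraries, with 5 of 6 called lower. Of these, Hba-a1 and Hba-a2 had identical values, 590 and 446 CPM in sham and 283 and 127 CPM in irradiated libraries. They are not 2 separate measurements, though the sums and the count hold both. Platelet markers, from cells that also carry Pecam1, Esam and Vwf, summed to 36.8 and 72.4 CPM against 21.9 and 30.0 CPM, with 3 of 6 called lower. Fibroblast markers summed to 4447 and 6481 CPM against 4486 and 4273 CPM, with 2 of 10 called lower though the sums overlapped, and cardiomyocyte markers to 650.5 and 582.7 CPM against 518.2 and 375.5 CPM, with 2 of 12 called lower. Mural cell markers were higher, at 2145 and 1980 CPM in sham and 2245 and 2823 CPM in irradiated libraries (median log2 fold change 0.25), with 1 of 10, the contractile gene Tagln, called higher. No marker in these 5 lists was at 0 reads, and their part in the member differences was not tested.

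**Figure D2:**
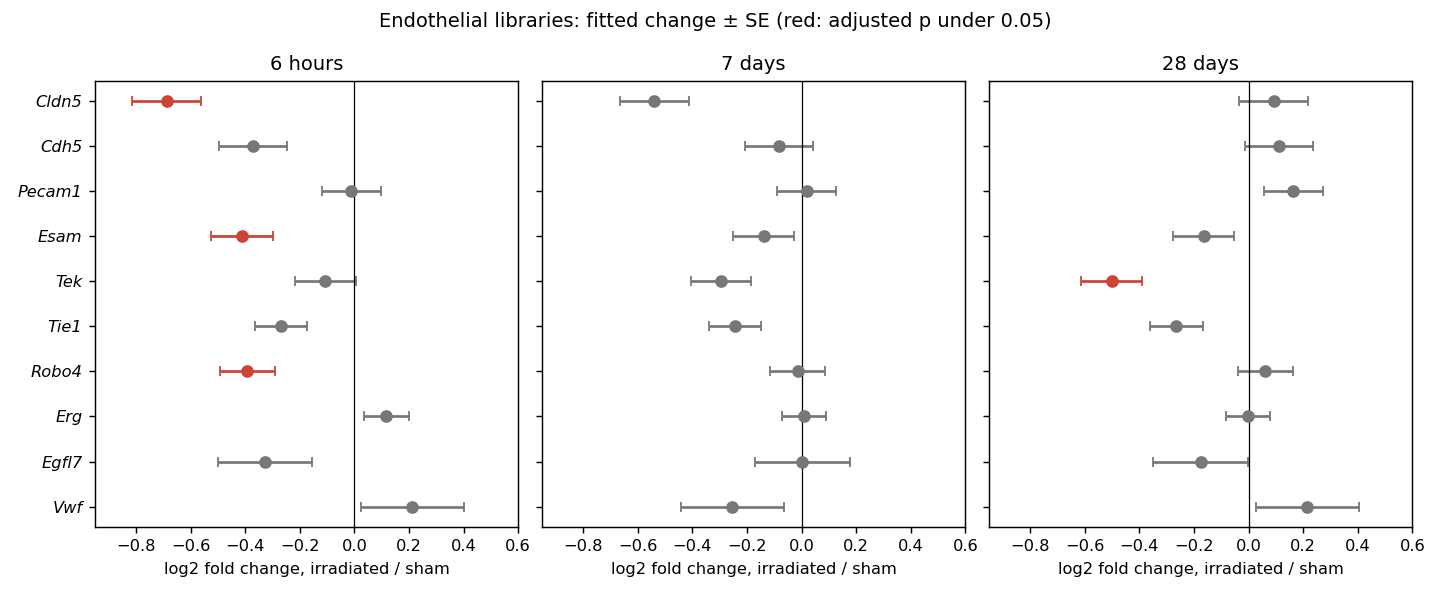
Fitted log2 fold change, irradiated over sham, of the 10 genes in endothelial libraries (x axis) with the SE of the edgeR contrast, at the 3 times; red marks an adjusted p under 0.05. Cldn5, Esam and Robo4 are red at 6 hours and Tek at 28 days, and no gene is red at 7 days.

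The radiation effect on Cldn5 differed between the 3 times. Its log2 fold changes of -0.69, -0.54 and 0.09 gave adjusted p = 0.0370 (edgeR F-test), and it was the 1 member called among 10, where 6.26% of all genes were called. The call was lost without either sham library of 28 days (adjusted p = 0.125 and 0.145), the second irradiated library of 28 days (0.0917) or of 6 hours (0.0679), either irradiated library of 7 days (0.0604 and 0.0511) or the first sham library of 7 days (0.0557). It was also lost with limma (0.0596), in one fit of all 36 libraries (0.642), and with the replicate number as a block (0.0520) or as a block within time (0.0583). For Tek (-0.11, -0.29 and -0.50) the same test gave adjusted p = 0.294, for Robo4 0.134 and for Cdh5 0.233.

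Sham levels moved with time as well. Cldn5 in sham libraries went from 446 and 333 CPM at 6 hours to 368 and 362 CPM at 7 days and 284 and 284 CPM at 28 days (edgeR F-test, adjusted p = 0.0260). Sham Esam was highest at 6 hours, and also differed (adjusted p = 0.0273). These were 2 of 10 members, beside 27.4% of all genes. The irradiated Cldn5 libraries, at 253, 247, 240, 266, 299.6 and 306 CPM, did not pass the same test (adjusted p = 0.212). Among irradiated libraries only Robo4 differed between times (adjusted p = 0.0333; 1 of 10 members, beside 16.5% of all genes), from 347 and 325 CPM at 6 hours and 323 and 373 CPM at 7 days to 464 and 413 CPM at 28 days. Without a sham library of 28 days the adjusted p for sham Cldn5 was 0.115 or 0.132 and for sham Esam 0.0689 or 0.0801, while without the first sham library of 6 hours it was 0.242 for Esam. The Robo4 call was lost without the first irradiated library of 28 days (adjusted p = 0.155) or of 7 days (0.0635), the second of 6 hours (0.0590), or either sham library of 28 days (0.0564 for both).

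Over the 12 endothelial libraries, the 5 genes whose log2(CPM + 1) followed Cldn5 most closely were Lrrc3b (Pearson r = 0.898), Tes (0.877), Ctnnbip1 (0.855), Bok (0.851) and Psme2 (0.848), of 10828 genes compared. For Vwf they were Ece1 (0.915), Ntn1 (0.866), Slc45a3 (0.845), Stt3b (0.820) and Pigs (0.813). The 12 libraries share their treatment and time groups, so these values describe likeness and nothing more.

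Other genes of the same processes gave a mixed picture in endothelial libraries, where 11.3% of all genes were called at 6 hours, 1.82% at 7 days and 9.97% at 28 days. At 6 hours 4 of 24 junction partners fell and 1 rose (median log2 fold change -0.10): the junction plaque gene Jup went from 796 and 751 CPM to 526 and 535 CPM (-0.59 ± 0.10, edgeR adjusted p = 0.00171), and the junction adhesion genes Jam3 (-0.53 ± 0.13, adjusted p = 0.0194) and Jam2 (-0.43 ± 0.11, adjusted p = 0.0242) were among those that fell. Mcam, another adhesion gene, rose by 0.35 ± 0.09 (adjusted p = 0.0284). At 7 days none of the 24 passed.

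At 28 days 6 of the 24 junction partners fell and 1 rose. Jam2 was at 860 and 900 CPM in sham and 498 and 546 CPM in irradiated libraries (log2 fold change -0.75 ± 0.11, edgeR adjusted p = 0.00108). The afadin gene, listed as Mllt4, fell by 0.75 ± 0.11 and the scaffold gene Tjp1 by 0.51 ± 0.12 on the log2 scale. The nectin gene listed as Pvrl2 rose by 0.60 ± 0.10. The median of the list was -0.01, beside 0.00 over all genes, and junction partners were thus called where Cdh5, Cldn5 and Pecam1 were not; no test compared them.

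Ligands, receptors and signalling genes of the angiopoietin and Slit pathways (15 genes) had 2 members higher and 1 lower at 6 hours, none at 7 days and 1 higher at 28 days, where 1 of 15 is a smaller share than the 9.97% of all genes. Angpt2, a ligand of the Tek receptor made by endothelium, rose from 32.3 and 30.9 CPM to 59.5 and 51.4 CPM at 6 hours (log2 fold change 0.77 ± 0.12, edgeR adjusted p = 0.00103). At 28 days it rose again, from 45.3 and 50.3 CPM to 86.9 and 67.1 CPM (0.68 ± 0.12, adjusted p = 0.00254). At 6 hours the roundabout receptor gene Robo1 rose at a low level (0.85 ± 0.25) and the kinase gene Akt1 fell by 0.46 ± 0.09.

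Endothelial transcription factors (20 genes) had 6 lower and none higher at 6 hours (median -0.28), none called at 7 days, and 2 higher and 1 lower at 28 days. The related endothelial SOX factors were among those that fell at 6 hours: Sox18 by 0.58 ± 0.10, Sox17 by 0.53 ± 0.11 and Sox7 by 0.48 ± 0.10 on the log2 scale (edgeR adjusted p = 0.00321, 0.00671 and 0.00979). Sox17 was again lower at 28 days (-0.55 ± 0.11, adjusted p = 0.00667), when Bcl6b and the ETS family gene Etv6 were higher.

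Endothelial surface proteins (20 genes) had 1 higher and 3 lower at 6 hours, 1 higher at 7 days, and 3 higher and 1 lower at 28 days. Mmrn2, a matrix protein of vessels, rose at all 3 times, by 1.08 ± 0.12, 0.60 ± 0.12 and 0.59 ± 0.12. Ramp2, Clec14a and Gpihbp1 fell at 6 hours. At 28 days Cd34 and Cd93 rose while the fatty acid transporter gene Cd36 fell by 0.73 ± 0.15.

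Of the genes for storage granules and haemostasis, 16 of 17 were tested, with 2 higher at 6 hours, none called at 7 days and 2 higher at 28 days, shares near the 11.3% and 9.97% of all genes. Selp, the P-selectin gene whose product is stored with von Willebrand factor, rose from 28.9 and 39.4 CPM to 97.3 and 104 CPM at 6 hours (1.52 ± 0.18, edgeR adjusted p = 0.000157). Vwf itself passed at none of the 3 times.

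**Figure D3:**
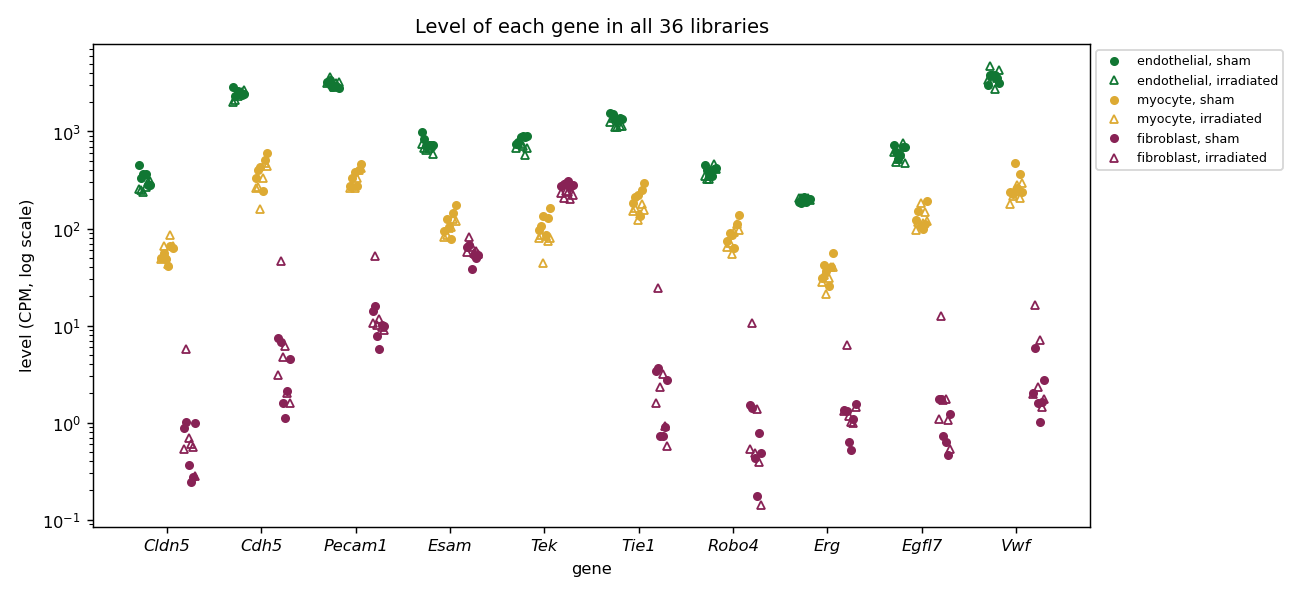
Level of the 10 genes (x axis) in all 36 libraries (y axis, CPM, log scale), with filled circles for sham and open triangles for irradiated libraries. Endothelial libraries are highest for each gene, and myocyte libraries follow except for Tek, where fibroblast libraries are second, and Esam. For Esam the myocyte and fibroblast values overlap, with a lowest sham myocyte value of 78.1 CPM and 1 irradiated fibroblast library at 81.6 CPM. That fibroblast library stands above the other 11 for 9 of the genes.

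In myocyte libraries the members were present at a fraction of the endothelial level. Sham myocyte levels were between 8.42% (Vwf) and 23.5% (Robo4) of sham endothelial levels, with a median of 15.5% over the 10 genes. Cdh5, at 420 ± 126 CPM (SD, n = 6) against 2509 ± 193 CPM, came to 16.7%, Tek to 14.1%, Pecam1 to 11.7%, Erg to 19.9% and Egfl7 to 20.5%. All 10 members were higher in sham endothelial than in sham myocyte libraries by edgeR, as were 41.8% of all genes.

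Ratios between members overlapped between the 2 preparations for some genes and not for others. Taking Cdh5 as the reference, Tie1 per Cdh5 was 0.520 ± 0.03 in sham myocyte and 0.560 ± 0.05 in sham endothelial libraries, and Cldn5 per Cdh5 was 0.134 ± 0.02 and 0.137 ± 0.02, each with overlapping ranges. Robo4 per Cdh5 was 0.225 ± 0.02 in myocyte and 0.159 ± 0.02 in endothelial libraries, with no overlap. Vwf per Cdh5 was 0.757 ± 0.27 and 1.43 ± 0.21, where the ranges (0.396 to 1.09 and 1.07 to 1.64) barely met.

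Irradiation left no member called in myocyte libraries at any time by edgeR, where 0.326% of all genes were called at 6 hours, 0.085% at 7 days and 0.0354% at 28 days. At 6 hours 1 member had an unadjusted p under 0.05 (Esam), at 7 days 2 (Tek and Egfl7), and at 28 days 3 (Tek, Tie1 and Esam). Of all 14115 genes tested, 571, 1973 and 526 reached it at these times. With no filter on low counts edgeR called 2 members at 7 days (Tek and Egfl7) and 1 at 28 days (Tek). Tek was at 97.4 and 105 CPM in sham and 80.4 and 85.4 CPM in irradiated libraries at 6 hours, and at 136 and 85.4 CPM against 44.2 and 83.0 CPM at 7 days. At 28 days it was at 127 and 162 CPM in sham and 74.3 and 80.6 CPM in irradiated libraries. The Tek groups did not overlap at any time, and the 28-day log2 fold change was -0.92 ± 0.24 (edgeR adjusted p = 0.476). Lower values without overlap were not particular to Tek at 6 hours or 28 days. With Tek counted, 7 members had them at 6 hours, 1 at 7 days and 6 at 28 days. The rest overlapped, apart from Egfl7 at 7 days, which was higher without overlap. The share of all genes with such values in myocyte libraries is not given here, so whether these counts of members are unusual cannot be read from them. Left without either irradiated library of 7 days, the fit gave adjusted p = 0.0194 and 0.0208 for Tek at 28 days.

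Cdh5 in the same myocyte libraries was at 503 and 602 CPM in sham and 476 and 443 CPM in irradiated libraries at 28 days, and Tek per Cdh5 was 0.253 and 0.269 in sham and 0.156 and 0.182 in irradiated libraries. In endothelial libraries of 28 days Tek per Cdh5 was 0.368 and 0.366 in sham and 0.224 and 0.254 in irradiated libraries. Both preparations thus had a lower ratio in the irradiated libraries, with no overlap between groups. Tek was not alone, since Tie1 per Cdh5 and Esam per Cdh5 were also lower without overlap in both preparations at 28 days. Tie1 per Cdh5 was 0.573 and 0.555 in sham and 0.444 and 0.426 in irradiated endothelial libraries. In myocyte libraries it was 0.495 and 0.485 against 0.373 and 0.352. No other member had a lower ratio without overlap in both. The difference of the Tek effect between the preparations was -0.41 ± 0.24 (edgeR adjusted p = 0.752).

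The first irradiated myocyte library of 7 days stood apart from the others of its kind, with Cdh5 at 158 CPM, Tek at 44.2 CPM and Egfl7 at 185 CPM, where the second had 329, 83.0 and 113 CPM. When the second was left out, so that the first alone stood for its group, Cdh5, Tek and Egfl7 were called (adjusted p = 0.00843, 0.000759 and 0.00166).

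Fibroblast libraries held little of most members. In sham libraries, 8 of the 10 were between 0.0699% (Vwf) and 0.555% (Erg) of their endothelial level, for example Cdh5 at 3.91 ± 2.71 CPM. All 10 were higher in sham endothelial than in sham fibroblast libraries (edgeR), as were 37.5% of all genes. Tek and Esam were the exceptions, at 285 ± 14.5 CPM or 33.8%, and 54.2 ± 10.5 CPM or 6.91%.

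Fibroblast Tek was above the level that the endothelial ratio to Cdh5 gives. At the endothelial ratio of Tek to Cdh5, the Cdh5 level of each fibroblast library corresponds to between 0.377 and 15.6 CPM of Tek, where 204 to 306 CPM were measured. Esam, at 38.1 to 81.6 CPM, was likewise above the 0.349 to 14.4 CPM that this ratio gives. Fibroblast Tek was also above myocyte Tek, whose highest value in any library was 162 CPM. The endothelial ratio did not hold for all other members in sham fibroblast libraries, where Cdh5 was low. Pecam1 per Cdh5 was 3.56 there and 1.215 in sham endothelial libraries, and Vwf per Cdh5 0.741 and 1.43, without overlap. Tie1 per Cdh5 overlapped (0.526 and 0.560). The source of Tek and Esam in fibroblast libraries was not tested.

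Tek fell in irradiated fibroblast libraries at each time. It was at 272 and 286 CPM in sham and 232 and 208 CPM in irradiated libraries at 6 hours (log2 fold change -0.35 ± 0.07, edgeR adjusted p = 0.00278; 24.6% of all genes called, 12.3% lower). At 7 days it was at 295 and 306 CPM against 242 and 237 CPM (-0.33 ± 0.07, adjusted p = 0.0314; 1.84% called, 0.327% lower). At 28 days it was at 267 and 284 CPM against 204 and 222 CPM (-0.39 ± 0.07, adjusted p = 0.00523; 3.29% called, 0.813% lower). No irradiated fibroblast library reached the lowest sham value of its time.

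At 6 hours the Tek difference stayed between -0.43 and -0.26 and was called whichever fibroblast library was left out, with adjusted p up to 0.0487. At 7 days the call was lost without either irradiated library of that time (adjusted p = 0.156 and 0.250), either sham library of that time (0.122 and 0.123) or either sham library of 28 days (0.0528 and 0.0532). At 28 days it was lost without the first irradiated library (0.0533) or the second sham library (0.0811). The Tek effect in fibroblast libraries was not called different from the endothelial one at any time (edgeR interaction test). Fibroblast minus endothelial, the log2 difference of the effect at 6 hours was -0.21 ± 0.24, that of 7 days -0.03 ± 0.24 and that of 28 days 0.12 ± 0.24.

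Mural cell markers were lower in the same fibroblast libraries at 6 hours, with 5 of 10 called lower and 1 higher, and summed levels of 1807 and 1737 CPM in sham and 1431 and 1376 CPM in irradiated libraries. At 7 days none of the 10 was called, with 1411 and 1467 CPM against 1461 and 1496 CPM. At 28 days 2 were lower, the ion channel genes Abcc9 and Kcnj8 of pericytes, with sums of 1715 and 1766 CPM against 1867 and 1719 CPM. No mural marker was at 0 reads.

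The summed level of fibroblast markers was lower, and that of mesothelial markers higher, in the irradiated fibroblast libraries of each time. Fibroblast markers summed to 78019.5 and 73431.5 CPM in sham and 68832.7 and 67039.5 CPM in irradiated fibroblast libraries at 6 hours, to 82128.1 and 78834.3 against 75402.4 and 74074.2 CPM at 7 days, and to 83734.3 and 81318.5 against 78344.2 and 77307.8 CPM at 28 days. The sums were lower without overlap each time, while of the 10 genes 5 were called lower and 1 higher at 6 hours, 1 lower and 1 higher at 7 days, and 1 lower and 2 higher at 28 days. Pdgfra, a receptor gene that marks fibroblasts, fell at all 3 times, by 0.70 ± 0.06, 0.48 ± 0.06 and 0.46 ± 0.06 on the log2 scale (edgeR adjusted p = 2.43e-06, 0.000983 and 0.000697). Mmp2, of the same list, rose at all 3 times, by 0.77 ± 0.06, 0.56 ± 0.06 and 0.43 ± 0.06 (edgeR adjusted p = 2.63e-07, 6.81e-05 and 0.000372). Col1a1 was the other gene called higher at 28 days (0.28 ± 0.07). Mesothelial markers summed higher without overlap, at 2128 and 2438 CPM in sham and 2472 and 2787 CPM in irradiated libraries at 6 hours, 1043 and 1628 against 2091 and 1963 CPM at 7 days, and 1453 and 1612 against 1879 and 1880 CPM at 28 days. Of these 6 genes 2 were called higher and 1 lower at 6 hours, 2 higher at 7 days and none at 28 days. No marker of either list was at 0 reads, and the part of these 3 marker lists in the Tek difference was not tested.

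**Figure D4:**
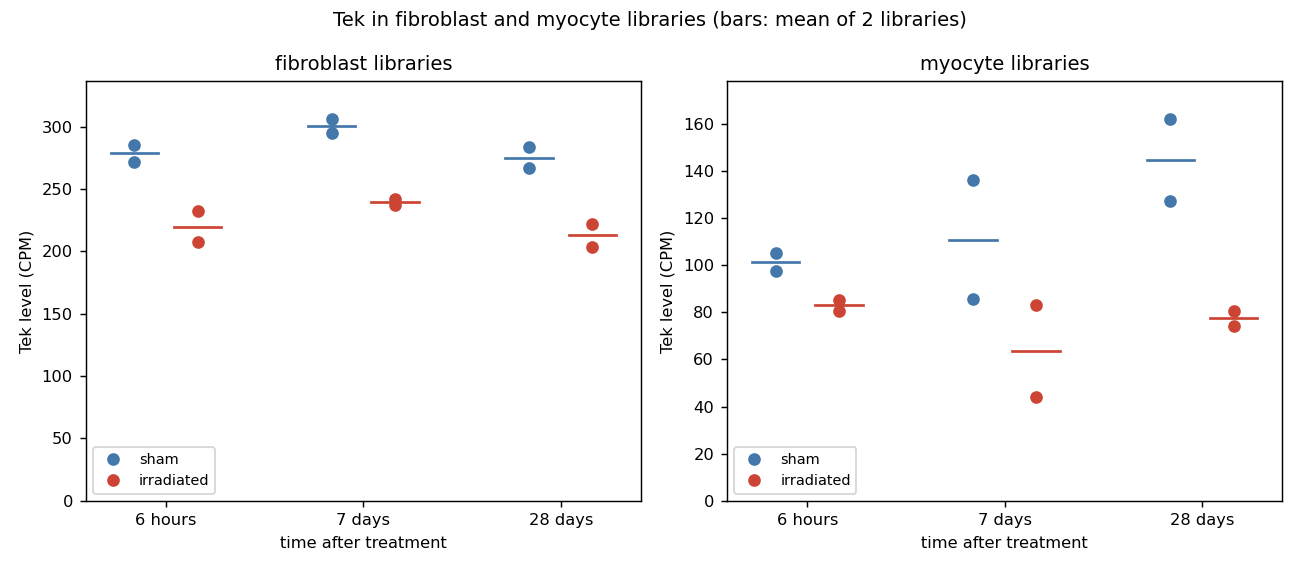
Tek level (y axis, CPM, from 0) in fibroblast (left) and myocyte (right) libraries at the 3 times (x axis), sham in blue and irradiated in red, with bars at the mean of 2 libraries. In fibroblast libraries the irradiated values of 204 to 242 CPM lie below the sham values of 267 to 306 CPM.

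The second irradiated fibroblast library of 6 hours stood apart by its endothelial transcripts. It had Cdh5 at 46.2 CPM, where the other 11 fibroblast libraries had at most 7.41 CPM, and Tie1 at 24.6 CPM against 0.569 to 3.68. Erg was at 6.34 CPM in this library and at 1.32 CPM in its partner, against 1.36 and 1.32 CPM in sham, and was called higher at 6 hours (log2 fold change 1.49 ± 0.51, edgeR adjusted p = 0.0465). Without that library the value was -0.03 (adjusted p = 0.976), and Cdh5 changed from 1.78 ± 0.70 to -1.17 (adjusted p = 0.0827 with and 0.0288 without it). The Erg call was lost without any 1 of 9 libraries. All 9 members other than Tek had a fitted value above 0 with that library and below 0 without it, where Robo4 was -1.47, Tie1 -1.15, Vwf -0.99, Cldn5 -0.82, Egfl7 -0.69, Pecam1 -0.50 and Esam -0.21. At 7 and 28 days the edgeR fit of the 12 fibroblast libraries called no member other than Tek. With no filter on low counts it called 8 and 3 members, and without either irradiated library of 6 hours it called 4 at 7 days (Tek, Cdh5, Pecam1 and Tie1). At 7 days both irradiated values were above both sham values for the 9 members other than Tek (23.4% of all genes), at levels under 12 CPM except for Esam.

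Interaction tests called no member for a radiation effect that differed between cell types. In the fit of all 36 libraries 0 of 10 members were called at each time for myocyte against endothelial, fibroblast against endothelial and fibroblast against myocyte effects (edgeR), where 0.382%, 0.129% and 0.0739% of all genes were called at 6 hours, 7 days and 28 days for the first, 2.11%, 0.222% and 0.283% for the second and 1.18%, 0.0862% and 0.105% for the third. An unadjusted p under 0.05 was reached by 0 members at each time for myocyte against endothelial effects. It was reached by 8, 4 and 0 members at 6 hours, 7 days and 28 days for fibroblast against endothelial effects. For fibroblast against myocyte effects it was reached by 7, 3 and 2. Of all 16234 genes tested, it was reached by 1259, 2537 and 1199 for the first contrast at these times. The second had 2392, 716 and 1321 such genes and the third 1453, 2813 and 774. Both fibroblast contrasts of 6 hours include the fibroblast library that stands apart. No other tool was run on these contrasts. The smallest such adjusted p for Cldn5 was 0.0623, for fibroblast against endothelial libraries at 6 hours, a value that includes the library that stands apart.

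For a pair of members the annotation (GENCODE M21) places other genes on the same stretch. Cdh5 starts within an antisense gene, Gm29682, and Egfl7 overlaps Gm20532 and, at its end, the antisense gene Agpat2. Whether counting used strand is not given in the sources used here, and reads of these genes could then not be told apart from those of Cdh5 and Egfl7.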

How the data were processed

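Per the labels' protocols, total RNA was purified on RNeasy columns and made into SMARTer libraries for mRNA sequencing. The authors mapped to the mouse build GRCm38, also called mm10, per the submitters' processing notes; which aligner and counter they ran is not stated in the sources used here. Each deposited file holds whole-number read counts per RefSeq transcript (33068 rows). A second deposited column is headed TPM, per the file headers, and was found to hold RPKM (largest difference 1.8e-12), so it was used as such, and the limma alternative planned on TPM was run on it. A further 30 read columns of other libraries in the files were not used.

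For each cell type the counts of its 12 libraries entered a model with 1 mean per group in edgeR 4.0.16 (R 4.3.3; TMM, filterByExpr with a minimum count of 10 and total of 15, quasi-likelihood tests). Contrasts between cell types came from a model of all 36 libraries. Adjusted p-values follow Benjamini and Hochberg over all genes tested, with a threshold of 0.05. CPM is a read count scaled to the total of a library's gene table. Alternatives were DESeq2 1.42.0, limma 3.58.1 on log2(RPKM + 1), other scalings and filters, a replicate block and leaving out each library. Comparisons of irradiated libraries between times, of fibroblasts with other cells and of ratios to Cdh5 were added after seeing the data. The code was tested on simulated data. Counts and CPM carry counting error that falls with depth.

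The members and the gene lists were chosen with earlier results of these data known. All 172 list genes had a row, 6 of them under an older symbol. All members were named in every comparison; from each list, up to 3 genes per direction with the smallest p among those called. Replicate numbers carry no shared batch in the labels and were not treated as pairs.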

Additional observations from a re-analysis of the deposited data

Results flagged for a closer look

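The radiation effect on Cldn5 in endothelial libraries differed between the 3 times by a test of the difference itself (edgeR F-test, adjusted p = 0.037), with log2 fold changes of -0.69, -0.54 and 0.09 at 6 hours, 7 days and 28 days. The call was lost when any 1 of 7 libraries was left out (adjusted p from 0.0511 to 0.145), with the replicate number as a block (0.0520) or as a block within time (0.0583), with limma (0.0596) and in one fit of all 36 libraries (0.642). Sham Cldn5 also differed between times (adjusted p = 0.0260), with 446 and 333 CPM at 6 hours and 284 and 284 CPM at 28 days.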

How the results depend on the processing

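Counts of members called in endothelial libraries changed with the tool. At 6 hours (3 in the reported fit) DESeq2 called 5, no low-count filter 5, limma on log2(RPKM + 1) 1, the 4 libraries of the comparison alone 1, and one fit of all 36 libraries 0. At 7 days (0) DESeq2, no filter and the 4 libraries alone each called 1. At 28 days (1) DESeq2 called 2, and one fit of 36 and the 4 libraries alone called 0. For the effect between times (1) DESeq2 called 2, no filter 3, and limma and one fit of 36 called 0. Sham libraries between times (2) gave 1 with limma and 4 with no filter, and irradiated libraries (1) gave 2 with no filter. With no filter, fibroblast libraries gave 9, 8 and 3 members at 6 hours, 7 days and 28 days, and myocyte libraries 2 at 7 days and 1 at 28 days.

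Genes called at 28 days (1487) were 2424 with no filter, 991 in one fit of 36 and 793 from 4 libraries; at 6 hours (1690) 792 from 4 libraries; at 7 days (271) 674 with no filter; and between times (934) 1454 with DESeq2, 2161 with no filter and 614 in one fit of 36. The cause of these changes was not tested.

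Leaving out 1 library gave 1 to 4 members at 6 hours, 0 to 1 at 7 days, 0 to 1 at 28 days and 0 to 1 between times, with 826 to 2028, 155 to 301, 443 to 2317 and 441 to 1504 genes. Sham libraries between times gave 0 to 3 members and irradiated ones 0 to 2. In fibroblast libraries the ranges were 1 to 9, 0 to 4 and 0 to 1 members at 6 hours, 7 days and 28 days, and in myocyte libraries 0 to 0, 0 to 3 and 0 to 1. Without the second irradiated fibroblast library of 6 hours, Cdh5 (-1.17), Erg (-0.0267) and the 7 other members apart from Tek changed sign, and the ranges of Cdh5 and Erg over all left-out libraries were -1.17 to 2.7 and -0.0267 to 2.23. Dropping a library also changes which genes pass the filter.

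With the replicate number as a block, the effect between times called 0 members (Cldn5 adjusted p = 0.0520), and 0 with the block within time (0.0583), where irradiated libraries between times also gave 0; no other count of members moved by over 1.5 times. Same-numbered libraries correlated between -0.3 and 0.32 over the 9 pairs of groups and the labels name no shared batch, so the numbers were not taken as pairs. Among single members and alternatives, 2136 values stayed the same, 57 lost the call, 63 gained it, 52 moved and 2 reversed. Those that stayed the same include 20 myocyte and 20 fibroblast percentages of the endothelial level, which have no threshold. The others kept their side of the threshold and, where the test had one, their direction. The fibroblast values of most members rest on few reads, since these genes were low there, and counting error limits them.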
